A study of Mus musculus with 12 samples.

Results

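Ribosome biogenesis factors are proteins that transcribe, modify, cut and fold ribosomal RNA and assemble it with ribosomal proteins, without being part of the finished ribosome. A list of 33 such genes was followed in mouse satellite cells, the stem cells of skeletal muscle, on Affymetrix Mouse 430A arrays. The annotation of the array gave 30 of the 33 genes at least 1 probe set of their own, 53 probe sets in all out of 20380 that were assigned to exactly 1 gene. For Dkc1 and Nob1 the annotation table named no probe set, and the probe set of Mrto4 was shared with other genes, so these 3 were not analysed. After a filter on low signal, 48 of the 53 probe sets and all 30 genes were tested, out of 12072 probe sets and 7960 genes. The filter used the mean over all arrays, and 1 of the 30 genes, Rrp12, had a group mean below it.

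Cells came from hind limb muscle of C57BL/6J mice aged 8 to 12 weeks, and each group had 4 arrays. Quiescent satellite cells were positive for the surface antigen recognised by the antibody SM/C-2.6 and were used fresh from the sorter, with over 97% of cells positive for the satellite cell transcription factor Pax7. Activated satellite cells were the same sorted fraction after 4 days in culture in DMEM with 20% fetal calf serum and 2.5 ng/ml basic fibroblast growth factor, with over 99% of cells positive for the myogenic factor MyoD. Non-myogenic cells were negative for SM/C-2.6 and for the leukocyte antigen CD45 and also used fresh from the sorter, and fewer than 1% of them were myogenic. The activated group alone was cultured, so activation and the effects of culture and of time since sorting cannot be told apart. Whether a group's arrays stem from different mice, and whether mice were pooled, is not in the labels, so the p-values cover the spread among these arrays only, part or all of which may be technical.

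Ribosome production starts in the nucleolus, where RNA polymerase I transcribes a long precursor RNA. Small nucleolar RNA-protein particles guide its chemical modification, those of the box C/D class directing ribose methylation and those of the box H/ACA class pseudouridylation, while separate sets of assembly factors build the small and the large subunit. Quiescent satellite cells are small cells with little cytoplasm that enlarge and enter the cell cycle when activated, and growing cells in general need more ribosomes.

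Promoter sequence was available from RefSeq (build GRCm38.p6) for 28 of the 33 genes, as the 250 bases before the start site and the 50 after it. Each window was searched on both strands for CACGTG, the E-box bound by Myc and Max, for CCGGAAG, the core bound by Ets factors, for CCAAT and for the NRF1 motif. None of these motifs contains another, but 2 CCAAT matches on opposite strands can overlap, as they do in Nhp2. In the 250 upstream bases CCGGAAG was found in 7 of the 28 genes (25%, against 7.83% of the 27025 genes in the table), CACGTG in 1 (3.57%, against 6.86%), CCAAT in 8 (28.6%, against 37.5%) and the NRF1 motif in 0 (against 0.877%). The full window of 300 bases was not part of the plan. In it CACGTG was found in 5 of the 28 (17.9%, against 8.09%), namely Nop2, Pes1, Pno1, Tsr1 and Wdr43. The full-window shares were 32.1% against 9.93% for CCGGAAG, 32.1% against 41.1% for CCAAT and 3.57% against 1.07% for the NRF1 motif. These matches are descriptions of the letters and say nothing of binding. The stretches below belong to 5 of the genes with large differences between the groups, chosen after their values were seen, and show the motifs in capitals, read along the gene's strand. They lie at chr11:51619678-51619768 (plus strand) for Nhp2, chr8:107056707-107056792 (plus) for Nip7, chr6:125131811-125131863 (plus) for Nop2, chr2:130274368-130274396 (plus) for Nop56 and chr11:17211636-17211664 (minus) for Pno1. Nop2 carries an E-box and an Ets core, Nhp2 and Nip7 an Ets core and CCAAT boxes, and Nop56 and Pno1 a CCAAT box.
Nhp2: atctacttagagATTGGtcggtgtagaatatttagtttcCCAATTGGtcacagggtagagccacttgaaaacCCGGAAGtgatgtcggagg
Nip7: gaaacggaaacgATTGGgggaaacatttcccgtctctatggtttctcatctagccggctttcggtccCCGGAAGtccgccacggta
Nop2: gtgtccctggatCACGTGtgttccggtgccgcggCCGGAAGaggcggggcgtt
Nop56: ccgcagcctctgATTGGtcaaaccggaga
Pno1: ccgaaacgcggaCCAATccagccttaggc

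Signals are MAS5 intensities scaled so that every array has the same trimmed mean, 235. Replicates 1 and 2 of the quiescent and activated groups and replicate 1 of the non-myogenic group were labelled with a small-sample kit, and the other 7 arrays with a two-cycle kit. Before scaling, trimmed means were 323 to 502 on the 5 small-sample arrays and 160.4 to 236 on the two-cycle arrays. Arrays of the same group correlated at 0.891 to 0.987 and arrays of different groups at 0.463 to 0.789. The 3′ to 5′ signal ratio of Gapdh, a measure of RNA and labelling quality, was 4.02 ± 0.97 (SD, n = 4) in quiescent, 1.75 ± 0.41 in activated and 3.87 ± 0.92 in non-myogenic arrays. It thus moved with the activated group. The same ratio of actin was 2.63 ± 1.04 in quiescent, 1.61 ± 0.35 in activated and 1.96 ± 0.37 in non-myogenic arrays. The part of either ratio in the results below was not tested. The number of arrays limits the precision of every value.

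In activated cells 26 of the 30 genes rose over quiescent cells and none fell (adjusted p under 0.05, limma with Benjamini-Hochberg adjustment), where 31.6% of all 7960 genes rose and 37.9% fell. All 30 log2 changes were above 0, from 0.07 to 2.24, and their median was 1.16, against -0.11 over all genes. A rise of at least 2-fold was seen for 18 of the 30, against 15.9% of all genes. The 4 activated arrays all lay above the 4 quiescent ones for 22 of the 30, against 24.8% of all genes. Gnl3, Nop58, Wdr43 and Nop14 did not pass the test.

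Quiescent cells in turn had more of these transcripts than non-myogenic cells, with 27 of the 30 higher and none lower, where 25.9% of all genes were higher and 26.3% lower. All 30 log2 differences were above 0, from 0.28 to 1.80, with a median of 0.97, against 0.03 over all genes. Without scaling of the arrays the median was 0.60 and 18 were higher, as were 783 of all 7960 genes. At least 2-fold differences were found for 13 of the 30, against 8.37% of all genes, and the arrays of both groups did not overlap for 25 of the 30, against 18.7%. Rrp9, Pno1 and Polr1b did not pass the test. In activated against non-myogenic cells all 30 were higher by at least 2-fold, where 33.8% of all genes were higher, 38.1% lower and 18.5% at least 2-fold higher, with a median log2 difference of 2.08 and no overlap of arrays (29.0% of all genes). Both first comparisons share the quiescent arrays, so they are set side by side only. Group means ran from non-myogenic through quiescent to activated for each of the 30 genes, an order that was not counted over all genes. Some steps fell below 0 in other settings. Nop58 had -0.22 with activation on the small-sample arrays, and Rrp9 -0.09 in quiescent against non-myogenic cells on the two-cycle arrays. Both tests were passed by 23 of the 30, against 7.53% of all genes. In bulk samples a smaller number of expressing cells and less RNA per cell cannot be told apart.

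**Figure D1:**
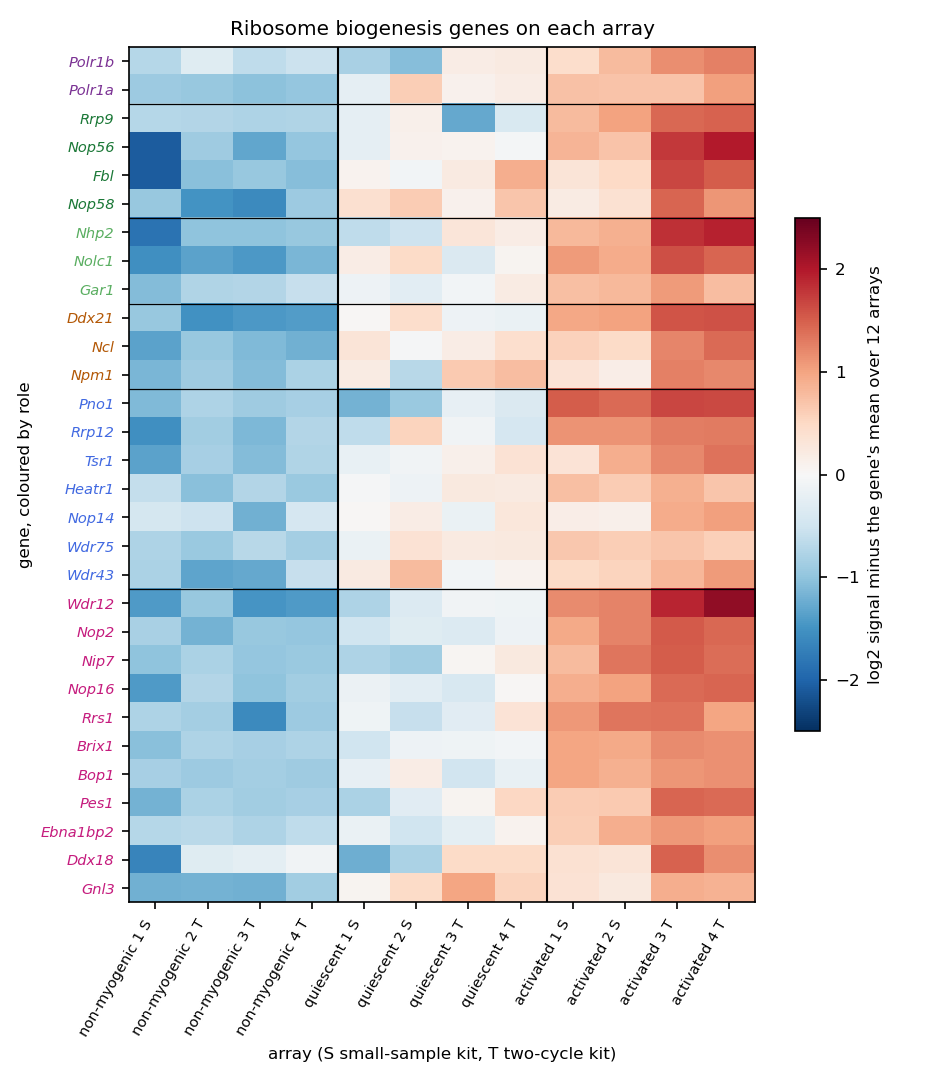
Log2 signal of each of the 30 genes (rows, coloured by role) on each of the 12 arrays (columns, S small-sample kit, T two-cycle kit), minus the gene's mean over the arrays; red is above and blue below that mean. The median over the 30 genes lay between -1.07 and -0.87 on the non-myogenic arrays, between -0.18 and 0.20 on the quiescent arrays and between 0.75 and 1.32 on the activated arrays.

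Among the subunits of RNA polymerase I, Polr1b, which encodes the second largest subunit, had signals of 78.6, 62.9, 171 and 176 on quiescent replicates 1 to 4, 207, 267, 352 and 373 on the activated ones, and 84.3, 117, 90.9 and 97.2 on the non-myogenic ones. Both two-cycle quiescent arrays lay well above both small-sample ones, and every activated array lay above all others. The rise with activation was 1.28 ± 0.18 (log2 ± SE, adjusted p = 2.97e-05), with 1.55 on the small-sample arrays and 1.00 on the two-cycle arrays. The difference of 0.36 ± 0.18 between quiescent and non-myogenic cells did not pass (adjusted p = 0.121), and it did so without quiescent replicate 2 (0.47, adjusted p = 0.0396) or without non-myogenic replicate 1 (0.56, adjusted p = 0.0291). This difference passed in 4 of 28 settings. It was 0.70 on the two-cycle arrays alone, -0.22 on the small-sample arrays alone and -0.02 without scaling. Polr1a, which encodes the largest, catalytic subunit, had quiescent signals of 179, 331, 229 and 245, activated signals of 363, 355, 357 and 447, and non-myogenic signals of 106, 102, 97.2 and 102. The 3 groups did not overlap for Polr1a, which rose by 0.62 ± 0.17 with activation (adjusted p = 0.00511) and was 1.14 ± 0.17 higher in quiescent than in non-myogenic cells (adjusted p = 0.000118). A second tested probe set of Polr1a put the step from quiescent to activated at -0.01 (adjusted p = 0.972) and that from non-myogenic to quiescent at 1.24, so the probe sets of this gene disagree on activation.

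Genes of the box C/D particles showed large differences between quiescent and non-myogenic cells, with a median log2 of 1.61 over the 4 genes. With activation 3 of the 4 rose (median 1.03), where 31.6% of all genes rose. Fbl encodes fibrillarin, the methyltransferase of these particles. Its signal was 1451, 1296, 1586 and 2568 on the quiescent arrays, 1713, 1924, 4382 and 3916 on the activated arrays, and 312, 651, 697 and 645 on the non-myogenic arrays. Quiescent and non-myogenic arrays were far apart, at a log2 difference of 1.80 ± 0.18 (3.48-fold, adjusted p = 2.84e-06), whereas quiescent and activated arrays overlapped. The activation change of Fbl was 0.72 ± 0.18 (adjusted p = 0.00278), with 0.40 on the small-sample arrays (adjusted p = 0.167) and 1.03 on the two-cycle arrays.

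Nop56 and Nop58 encode the paired scaffold proteins of the box C/D particle. Nop56 had signals of 558, 708, 701 and 635 in quiescent cells, 1196, 1088, 2269.8 and 2627 in activated cells, and 144, 349.6, 259 and 327 in non-myogenic cells, with no overlap of groups. It rose by 1.35 ± 0.21 with activation (adjusted p = 6.42e-05), and quiescent cells exceeded non-myogenic cells by 1.47 ± 0.21 (adjusted p = 7.32e-05). Nop58 was measured at 801, 956, 653 and 994 in quiescent, 704, 798, 1679 and 1316 in activated, and 306, 205, 191 and 316 in non-myogenic cells. The small-sample activated arrays of Nop58 lay inside the quiescent range and the two-cycle ones above it. Its difference with activation was 0.33 ± 0.26 (adjusted p = 0.285), with -0.22 on the small-sample arrays and 0.87 on the two-cycle arrays, while quiescent exceeded non-myogenic cells by 1.75 ± 0.27 (3.37-fold, adjusted p = 0.000127). Rrp9, a protein of the U3 particle that acts in early cleavage of the precursor, differed from this pattern. Quiescent signals were 233, 301, 104 and 206, activated signals 485, 562, 762 and 780.3, and non-myogenic signals 159.8, 159, 154 and 157. Rrp9 rose by 1.61 ± 0.25 (3.06-fold, adjusted p = 8.23e-05), and its quiescent and non-myogenic arrays overlapped (0.28 ± 0.26, adjusted p = 0.39, and 0.64 with adjusted p = 0.0197 without quiescent replicate 3). The difference between these 2 groups passed in 1 of 28 settings. It was -0.09 on the two-cycle arrays alone and -0.08 without scaling.

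Nhp2, Gar1 and Nolc1 were grouped under the box H/ACA class, although Nolc1 is not specific to it. All 3 rose with activation (median 1.17, the value of Nolc1), where 31.6% of all genes rose. They were also higher in quiescent than in non-myogenic cells (median 1.26), where 25.9% of all genes were higher. Nhp2, a core protein of the particle, had signals of 655, 710.2, 1279.6 and 1175 in quiescent cells, 1821, 1929, 3677 and 3944 in activated cells, and 274, 507, 504 and 529.7 in non-myogenic cells. Within each group the small-sample arrays were the lower ones, and the groups did not overlap. The activation change was 1.53 ± 0.12 (2.89-fold, adjusted p = 1.13e-07), and it was 1.44 and 1.62 on the small-sample and the two-cycle arrays. The difference between quiescent and non-myogenic cells was 1.26 ± 0.12 (adjusted p = 1.95e-06). Gar1, also a core protein, rose from 983 ± 139 (SD, n = 4) to 1859 ± 197 (log2 0.91 ± 0.14, adjusted p = 4.49e-05) and stood at 592 ± 88.8 in non-myogenic cells. Nolc1 encodes Nopp140, a phosphoprotein that accompanies small nucleolar particles of both classes. It rose from 484 ± 117 to 1105 ± 248 (log2 1.17 ± 0.20, adjusted p = 0.000166) and was at 164 ± 20.6 in non-myogenic cells, 1.47 ± 0.21 below quiescent cells (adjusted p = 5.47e-05). The 3 probe sets of Nolc1 rose by 1.03 to 1.17. Outside the list, the core gene Nop10 rose by 0.37 ± 0.13 (adjusted p = 0.0218, not called in 7 of 28 settings), and the assembly factor gene Naf1 changed by -0.32 ± 0.17 (adjusted p = 0.104); both are named here after their values were seen.

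The genes of the abundant nucleolar proteins Ncl, Npm1 and Ddx21, which belong to no single particle, were 2.55-fold to 2.79-fold higher in quiescent than in non-myogenic cells. Ncl encodes nucleolin, an RNA-binding protein of early precursor processing. Its signals were 3151, 2477, 2894 and 3394 in quiescent cells, 3793, 3506, 5902 and 6761 in activated cells, and 990.5, 1294, 1170.4 and 1089.7 in non-myogenic cells, with no overlap. The step to quiescent cells was 1.48 ± 0.17 (adjusted p = 7.75e-06) and that to activated cells 0.70 ± 0.16 (adjusted p = 0.00183, and 0.38 with adjusted p = 0.206 on the small-sample arrays). The other 3 probe sets of Ncl also rose with activation, by 0.72 to 1.16. The probe set at 0.72 may match other transcripts, and its quiescent and activated arrays overlapped.

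Npm1 encodes nucleophosmin, a nucleolar chaperone. Quiescent signals were 3952, 2130.3, 5422 and 5858, activated signals 4392, 3855, 8232 and 7936, and non-myogenic signals 1556, 1847, 1624 and 1975. Quiescent arrays lay above all non-myogenic ones (1.40 ± 0.21, adjusted p = 9.33e-05) but overlapped with the activated arrays. The activation change was 0.51 ± 0.20 (adjusted p = 0.0388), 0.50 and 0.52 within the kits. Of the called genes it lost its call most often, in 8 of 28 settings, with an adjusted p of 0.133 without quiescent replicate 2 (log2 0.31) and of 0.0601 to 0.0949 without quiescent replicate 3 or activated replicate 1, 3 or 4. A second probe set of Npm1 rose by 1.14 ± 0.19 (adjusted p = 0.000136) with no overlap of arrays. Ddx21, an RNA helicase that acts in transcription and processing of ribosomal RNA, rose from 353 ± 74.1 to 859.5 ± 207 (log2 1.24 ± 0.20, adjusted p = 0.000119), from 128 ± 27.4 in non-myogenic cells. A second probe set of Ddx21 agreed on the difference between quiescent and non-myogenic cells (1.42) but gave 0.23 for activation (adjusted p = 0.23).

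Of the 7 factors of the small subunit 5 rose with activation (median log2 0.66, range 0.48 to 2.24), where 31.6% of all genes rose. In quiescent against non-myogenic cells 6 of the 7 were higher (median 0.96), where 25.9% of all genes were higher. Pno1, which binds the precursor of the small subunit and places the endonuclease Nob1 near its cleavage site, had the largest change of the 30 genes over all arrays. Its signals were 163, 197, 335 and 301 in quiescent cells, 1143, 1067, 1270.1 and 1252 in activated cells, and 174, 222, 203 and 214 in non-myogenic cells. Activated arrays were alike and far above the rest, while the quiescent and non-myogenic ranges overlapped. The activation change was 2.24 ± 0.15 (4.71-fold, adjusted p = 2.71e-08), with 2.53 and 1.94 on the small-sample and the two-cycle arrays. On the two-cycle arrays alone Rrp9 (2.28) and Wdr12 (2.16) changed more. The difference of Pno1 between quiescent and non-myogenic cells was 0.33 ± 0.15 (adjusted p = 0.0865, and 0.42 with adjusted p = 0.0259 without quiescent replicate 1). It passed in 3 of 28 settings and was -0.06 without scaling.

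Rrp12, a repeat protein of late assembly and export, had low signals of 33, 93.3, 55.0 and 40.7 in quiescent cells and 10.7, 25.9, 19.3 and 29.5 in non-myogenic cells, against 146, 145, 165 and 167 in activated cells. The groups did not overlap, and the rise was 1.35 ± 0.23 (adjusted p = 0.000184). Tsr1, a GTPase-like factor of the late precursor, had quiescent signals of 164, 176, 208 and 248, activated signals of 244, 368, 453 and 506 and non-myogenic signals of 65.7, 100, 82.0 and 107. Activated replicate 1 lay within the quiescent range and the other 3 above it, and the change was 0.90 ± 0.15 (adjusted p = 0.000164). Heatr1, a scaffold of the first precursor that also supports transcription by RNA polymerase I, rose from 443 ± 56.9 to 706 ± 53.9 (log2 0.66 ± 0.15, adjusted p = 0.00135), from 231 ± 34.4 in non-myogenic cells.

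Wdr43 and Wdr75 belong to the same early complex as Heatr1, and Nop14 to the small subunit processome that this complex helps to form. Wdr75 was at 274, 398, 364 and 367 in quiescent, 503, 479, 509 and 472 in activated and 175, 155, 185 and 166 in non-myogenic cells, with no overlap. It rose by 0.48 ± 0.14 with activation (adjusted p = 0.00798) and was 0.98 ± 0.14 higher in quiescent than in non-myogenic cells (adjusted p = 7.74e-05). A second, dim probe set of Wdr75, below the signal filter and so not tested alone, was at 15.8 ± 8.29 in activated and 64.8 ± 23.6 in quiescent cells, so that the mean of both probe sets had a change of -0.45 (adjusted p = 0.028). Wdr43 signals were 528, 779.7, 428 and 475 in quiescent, 633, 664, 810.2 and 946 in activated and 251, 169.5, 177 and 295 in non-myogenic cells. Quiescent replicate 2 lay above activated replicates 1 and 2, and the change of 0.48 ± 0.22 did not pass (adjusted p = 0.0736). It passed without quiescent replicate 2 (0.66, adjusted p = 0.0164) or activated replicate 1 (0.59, adjusted p = 0.0459), and a second probe set rose by 1.03 ± 0.20 (adjusted p = 0.00038). Nop14 had signals of 215, 241, 186 and 261 in quiescent, 239, 233, 419 and 447 in activated and 153, 143, 83.6 and 154 in non-myogenic cells. Its difference was 0.49 ± 0.23 (adjusted p = 0.0803), with 0.05 on the small-sample arrays and 0.92 on the two-cycle arrays, and it passed without activated replicate 2 (0.61, adjusted p = 0.0464) or non-myogenic replicate 3 (0.49, adjusted p = 0.0442).

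**Figure D2:**
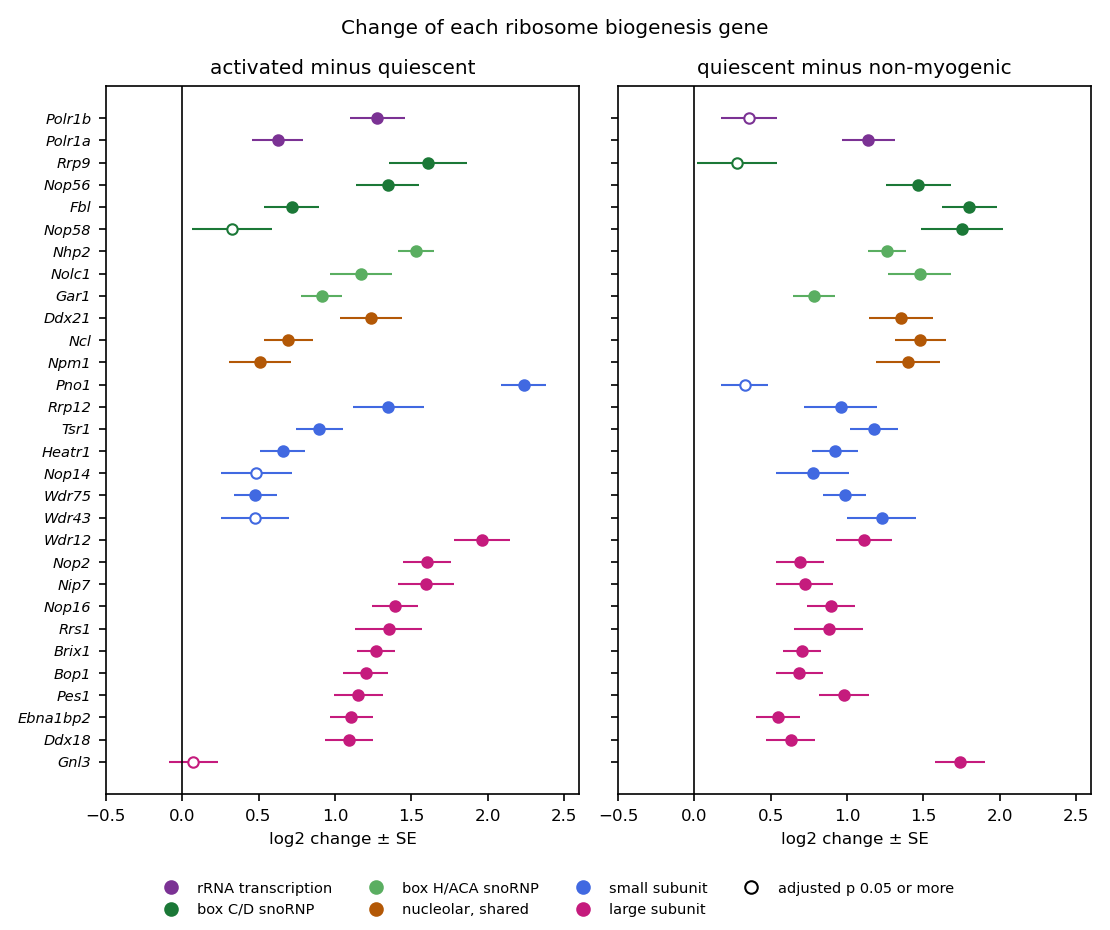
Log2 difference with its SE for each of the 30 genes, activated minus quiescent on the left and quiescent minus non-myogenic on the right; filled circles have an adjusted p under 0.05 and open circles do not. Pno1 stands at 2.24 on the left and 0.33 on the right, and Gnl3 at 0.07 and 1.74.

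Of the 11 factors of the large subunit 10 rose with activation (median log2 1.27), where 31.6% of all genes rose. All 11 were higher in quiescent than in non-myogenic cells (median 0.72), where 25.9% of all genes were higher. Without scaling 4 of the 11 were higher (median 0.33), as were 783 of all 7960 genes. On the small-sample arrays alone, with 1 non-myogenic array, the median was 0.66. Second tested probe sets of Brix1 (0.21, adjusted p = 0.357), Pes1 (0.37, adjusted p = 0.176) and Ebna1bp2 (0.51, adjusted p = 0.114) did not pass for quiescent against non-myogenic cells. Those of Wdr12 (0.96), Nip7 (0.58) and Ddx18 (0.43) did. Wdr12, Bop1 and Pes1 encode the PeBoW complex, which is needed to process the precursor of the large subunit. Wdr12 was at 107, 149, 181 and 178 in quiescent, 454, 479, 768 and 946 in activated and 63.5, 93.5, 60.4 and 63.5 in non-myogenic cells. Its groups were apart on every array, with a rise of 1.96 ± 0.18 (3.90-fold, adjusted p = 5.52e-07) and 1.77 and 2.16 within the kits. From non-myogenic to activated cells Wdr12 spanned 8.41-fold. Bop1 rose from 385 ± 76.9 to 894 ± 72.6 (log2 1.20 ± 0.15, adjusted p = 9.27e-06), and Pes1 from 380.2 ± 148 to 849.6 ± 268 (1.15 ± 0.16, adjusted p = 2.68e-05). The second probe sets of Wdr12 and Pes1, both dim, did not pass for activation (0.24 with adjusted p = 0.429 and 0.07 with adjusted p = 0.796).

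Nop2 encodes a methyltransferase of the large subunit RNA and is a known marker of proliferating cells. Quiescent signals were 174, 201, 193 and 229.7, activated signals 495, 614, 755 and 699, and non-myogenic signals 137, 102, 123 and 121. The groups did not overlap, with a rise of 1.60 ± 0.15 (3.04-fold, adjusted p = 8.6e-07) and a difference of 0.69 ± 0.16 between quiescent and non-myogenic cells (adjusted p = 0.00247). The latter was 0.32 without scaling (adjusted p = 0.19) and 0.41 on the small-sample arrays alone. Nip7, which acts in the processing of the precursor and whose promoter stretch is printed with that of Nop2, had signals of 232, 215, 422 and 485 in quiescent, 712, 1054, 1182 and 1098 in activated and 194, 229, 199.7 and 207 in non-myogenic cells. The small-sample quiescent arrays of Nip7 lay in or next to the non-myogenic range, and all activated arrays lay above both groups. Nip7 rose by 1.60 ± 0.18 (adjusted p = 4.28e-06). A dimmer probe set of Nip7 gave -0.14 (adjusted p = 0.453).

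Brix1, Rrs1 and Ebna1bp2 encode factors of intermediate assembly steps, Rrs1 being needed to dock the small RNA particle of the large subunit. They rose by 1.27 ± 0.12, 1.35 ± 0.22 and 1.11 ± 0.14, with no overlap of activated and quiescent arrays. Brix1 went from 856 ± 109.6 to 2075 ± 166, Rrs1 from 438 ± 123 to 1117 ± 147 and Ebna1bp2 from 473 ± 82.2 to 1032 ± 141. Nop16 rose by 1.39 ± 0.15 (adjusted p = 3.14e-06), from 166 ± 23.4 to 465 ± 93.9. A dim probe set of Ebna1bp2 that may match other transcripts gave -0.38 (adjusted p = 0.192).

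Ddx18, an RNA helicase of large subunit assembly, had quiescent signals of 181, 249, 619 and 617, activated signals of 574, 555, 1254 and 998 and non-myogenic signals of 131, 353, 367 and 412. Its small-sample arrays were lower in every group, so the groups overlapped although the rise was 1.09 ± 0.16 (adjusted p = 3.48e-05). Its second tested probe set separated quiescent from activated arrays, at 1.26 ± 0.13.

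Gnl3 encodes nucleostemin, a nucleolar GTPase known from stem and progenitor cells. Its signals were 1137, 1514, 2166 and 1616 in quiescent cells, 1394, 1291, 2044 and 1994 in activated cells, and 467, 472, 467 and 588 in non-myogenic cells. The activated arrays lay inside the quiescent range, at a difference of 0.07 ± 0.16 (adjusted p = 0.708) with 0.03 and 0.11 within the kits. Over non-myogenic cells the quiescent arrays stood 1.74 ± 0.16 higher (3.33-fold, adjusted p = 1.58e-06), with no overlap. Gnl3 and Nop58 were thus both above 3-fold in this comparison and not called with activation, while Pno1, Rrp9 and Polr1b were called with activation and not here.

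**Figure D3:**
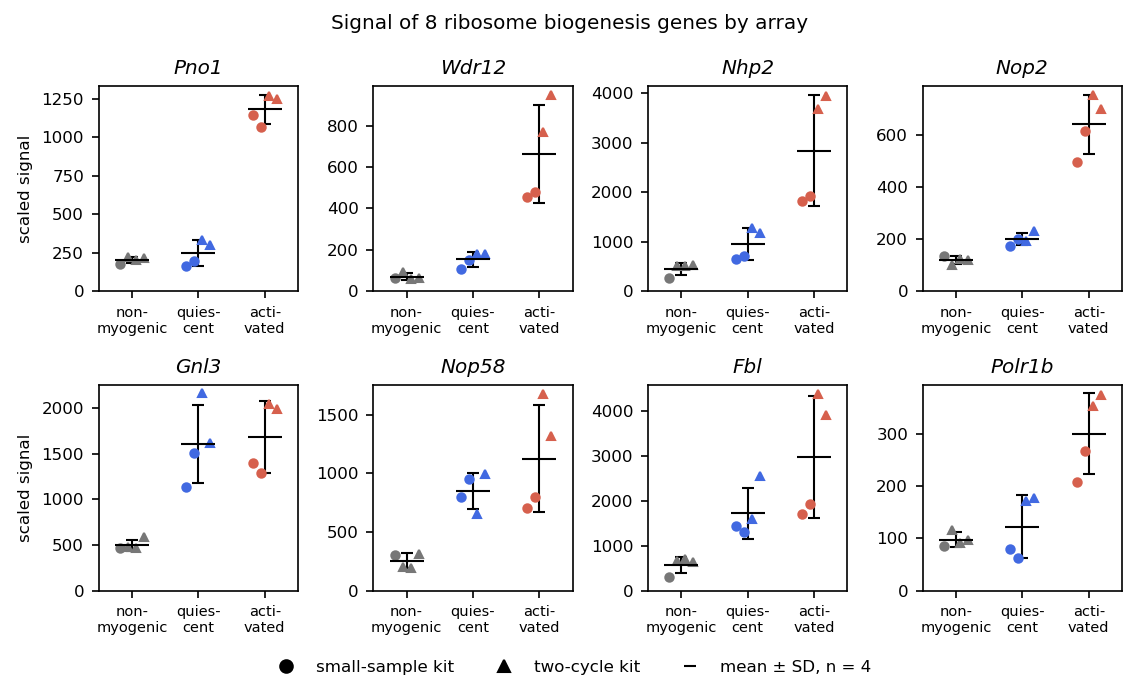
Scaled signal on each array for 8 of the genes, circles for the small-sample kit and triangles for the two-cycle kit, with mean ± SD (n = 4) per group; each panel has its own axis starting at 0. In Pno1 the activated arrays (1067 to 1270.1) stand apart from all others, and in Gnl3 the quiescent (1137 to 2166) and activated (1291 to 2044) arrays cover one range above the non-myogenic arrays (467 to 588).

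The 2 labelling kits allow the activation change to be measured separately, with 2 arrays of each kit per group. The median over the 30 genes was 0.94 on the small-sample arrays and 1.13 on the two-cycle arrays, with 29 and 30 of the 30 above 0. The difference between the kits was tested as an interaction, which called none of the 30 genes (lowest adjusted p = 0.0983, limma with Benjamini-Hochberg adjustment), where 2.79% of all genes were called. At an unadjusted p under 0.05 there were 7, namely Nop56, Nop58, Rrp9, Nolc1, Ddx21, Nop14 and Wdr43, and all 7 had the larger change on the two-cycle arrays. The same count and direction were not taken over all genes, so the 7 are not read as a property of the members. Without the 2 small-sample activated arrays, a setting chosen after seeing the data, 28 of the 30 rose (median 1.22), as did 2200 of all 7960 genes. Nop58 (0.93), Nop14 (0.98) and Wdr43 (0.89) then passed and Wdr75 (0.45, adjusted p = 0.0656) did not. For quiescent against non-myogenic cells, 29 of the 30 were called with the two-cycle arrays alone (median 1.07) and 11 with the small-sample arrays alone (median 0.88), which hold 2 quiescent arrays and 1 non-myogenic array. Of all 7960 genes, 2080 were higher with the two-cycle arrays alone and 518 with the small-sample arrays alone.

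**Figure D4:**
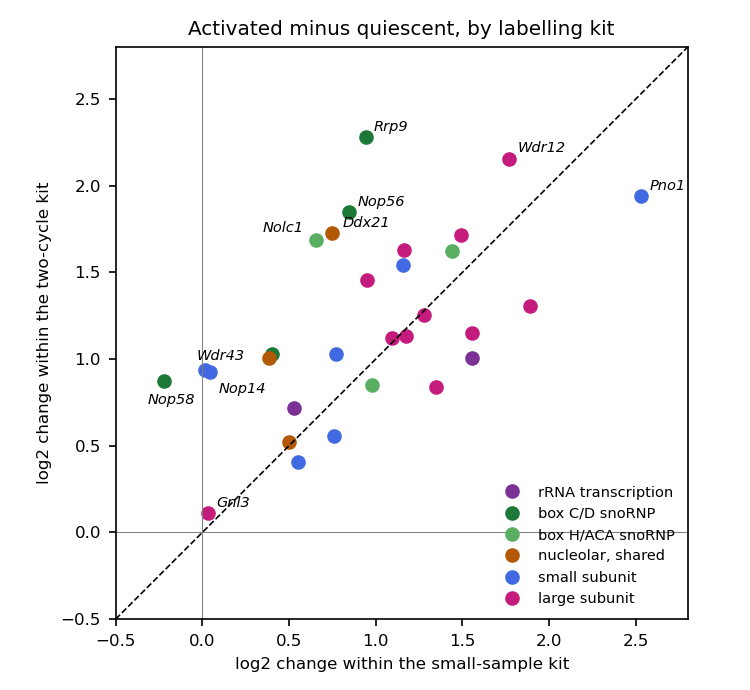
Log2 change from quiescent to activated cells for each of the 30 genes, on the small-sample arrays (horizontal axis) and on the two-cycle arrays (vertical axis), coloured by role; the dashed line marks equal change. Most genes lie above 0 on both axes, Nop58 is the 1 gene below 0 on the small-sample arrays (-0.22), and the labelled genes are those with an unadjusted interaction p under 0.05 and Pno1, Wdr12 and Gnl3.

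Genes with more than 1 probe set number 18 of the 30. Counted by probe set, 38 of the 48 tested rose with activation (30.7% of all probe sets), 42 were higher in quiescent than in non-myogenic cells (27.4%) and 46 in activated than in non-myogenic cells (34.1%). Probe sets of 1 gene share their transcript and are not independent.

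Other genes of the pathway were taken from 5 lists, with 125 genes tested. With activation 83 rose and 6 fell (median log2 0.72), where 31.6% of all genes rose and 37.9% fell. Against non-myogenic cells, 75 were higher and 2 lower in quiescent cells (median 0.53), where 25.9% of all genes were higher and 26.3% lower. Of 13 genes that trim or degrade ribosomal RNA precursors 12 rose (median 1.04), led by the exosome gene Exosc4 (2.17) with Dis3 (1.31) and Exosc1 (1.29), the catalytic and a cap subunit, and the exonuclease gene Xrn2 (1.04, and -0.01 as the mean of its probe sets). Of 43 other small subunit factors 29 rose (median 0.73), including Bysl (2.35), Dcaf13 (1.56), Imp4 (1.49) and Tbl3 (1.33), and 1 fell, the late kinase gene Riok3 (-0.64). Of 45 other large subunit factors 31 rose (median 0.72), including Nol12 (2.42), Wdr74 (1.80), Ddx56 (1.54) and Ftsj3 (1.27). The 3 that fell were Nop53 (-1.22), Nsa2 (-0.90) and Sbds (-0.46), which act from intermediate to late and cytoplasmic steps. Of 10 factors that assemble small nucleolar particles 6 rose (median 0.43), among them the paired ATPase genes Ruvbl2 (1.67) and Ruvbl1 (1.31), Znhit3 (1.15) and Nufip1 (1.06).

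Of the 14 other genes of polymerase I transcription 5 rose and 2 fell, where 31.6% of all genes rose and 37.9% fell. The share that rose was thus near that of all genes. The median of the 14 was 0.06, and -0.04 on the small-sample arrays. Rrn3, the initiation factor that links growth signals to polymerase I, rose by 1.53 ± 0.14 (adjusted p = 4.96e-07), and the polymerase subunit genes Polr1e (1.08), Polr2h (1.12) and Polr2e (0.80, and -0.03 as the mean of its probe sets) rose too. The 2 that fell, Taf1d (-0.92) and Taf1a (-0.65), encode parts of the promoter selectivity factor. Riok3, Sbds, Taf1a, Xrn2 and Polr2e each lost the call in some of the alternative settings.

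Ribosomal proteins are what these factors assemble. Of 79 ribosomal protein genes listed 43 could be tested. With activation 2 of the 43 rose and 30 fell (median log2 -0.47), where 31.6% of all genes rose and 37.9% fell. In quiescent against non-myogenic cells 42 of the 43 were higher (median 0.97), where 25.9% of all genes were higher. The fall depends on the scaling, since 14 fell after quantile normalization (median -0.14) and 9 without scaling (median -0.16). Of all 7960 genes, 2608 and 2116 fell in these settings, so the share of ribosomal protein genes that fell there was not above that of all genes.

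In the Myc and Max network, whose members bind the E-box, none of the 7 tested genes rose with activation and 6 fell (median -1.29). Of all genes 31.6% rose and 37.9% fell. Myc itself had a signal of 1433 ± 654 in quiescent, 448 ± 87.4 in activated and 582 ± 429 in non-myogenic cells, a change of -1.56 ± 0.37 with activation (adjusted p = 0.00212). Mycn fell by 1.89 ± 0.31. Genes of Max partners that repress transcription fell as well, with log2 changes of -3.01 ± 0.22 for Mxd4, -1.29 ± 0.15 for Mxi1 and -1.25 ± 0.15 for Mnt, and Mlx changed by -0.45 ± 0.15. Max changed by -0.20 (adjusted p = 0.23). Across the settings Myc was not called in 2 and Mlx in 9.

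**Figure D5:**
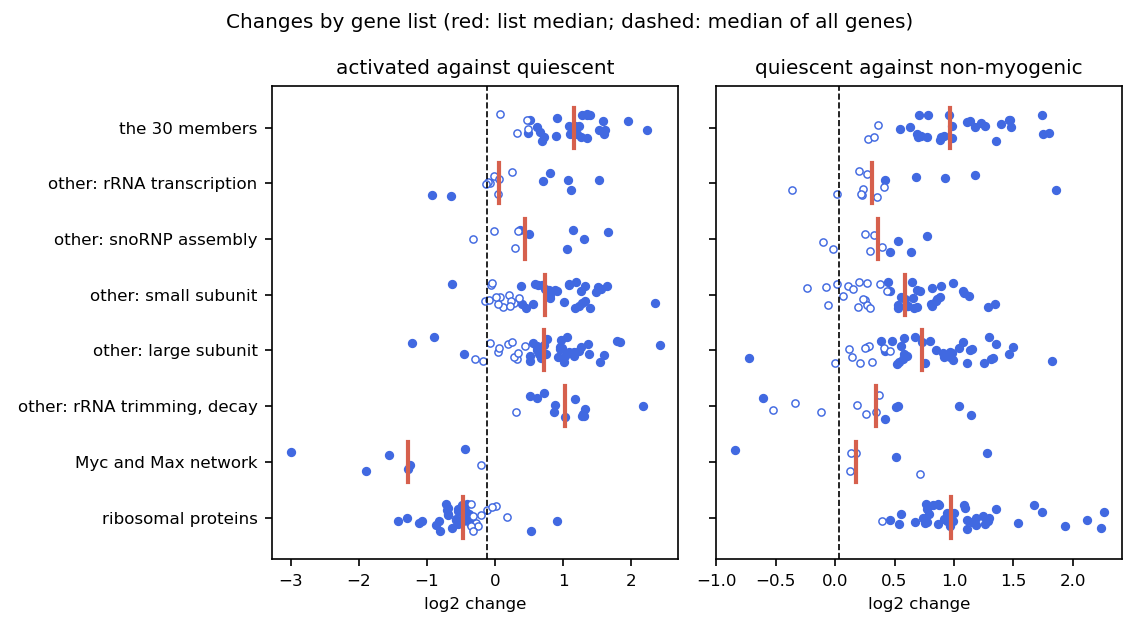
Log2 change of each gene (points, filled where the adjusted p is under 0.05) in the 30 members, the other pathway lists, the Myc and Max network and the ribosomal proteins; red bars are list medians and the dashed line the median of all genes. With activation (left) the members centre on 1.16 and the ribosomal proteins on -0.47, and in quiescent against non-myogenic cells (right) both centre on 0.97.

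Markers of the cell types were read on the same arrays. Summed satellite cell markers (10 of 10 tested) ran from 22620.3 to 29104 in quiescent, 3083 to 4566 in activated and 3479 to 3702 in non-myogenic arrays, with Pax7 at 1071 ± 572, 90.2 ± 31.7 and 4.07 ± 2.42 and Calcr at 768 ± 152, 9.18 ± 7.29 and 9.22 ± 4.09. Spry1, at 4776 ± 1873, 284 ± 62.8 and 2192 ± 329, gave the largest part of the non-myogenic sum. Between activated and non-myogenic cells 5 of the 10 were higher and 3 lower, where 33.8% of all genes were higher and 38.1% lower. Cycling cell markers such as Mki67 and Cdk1 moved with the 30 genes. All 11 tested were higher in activated than in quiescent cells (31.6% of all genes), and 9 of the 11 in quiescent than in non-myogenic cells (25.9% of all genes). Their sum was 912 to 1538, 10055 to 14393 and 457 to 763 in the 3 groups. Myoblast and myocyte markers (8 tested) summed to 2108 to 3497, 7736 to 21142 and 2089 to 6158. With activation 7 of the 8 were higher and 1, Ckm, was lower, where 31.6% of all genes rose and 37.9% fell. Ckm, at 796 ± 308, 75.0 ± 66.2 and 3281 ± 1562, gave most of the non-myogenic sum. Myod1 was at 1277 ± 328, 4629 ± 1244 and 36.2 ± 3.96, and Myog at 456 ± 127, 1780 ± 1945 and 50.4 ± 28.5. Fibroblast markers (8 tested) summed to 12227 to 22027, 1356 to 1862 and 38243 to 71242.5, and endothelial markers (8 tested) to 1488 to 3240.5, 71.7 to 128 and 8527 to 9221, so both were lowest in activated and highest in non-myogenic arrays. Leukocyte markers (3 of 8 tested) summed to 205 to 672, 211 to 249 and 305 to 524, and Schwann and mural cell markers (6 tested) to 5249 to 7536, 2206 to 4705 and 7738 to 17729. The part of cell cycling and of other cell types in the differences above was not tested.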

How the data were processed

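Signals of 12 arrays were analysed, 4 per group as labelled. The deposited table holds 1 linear intensity per probe set and array, made by the authors with MAS5, per the submitters' processing notes; for its version and scaling, nothing is given in the sources used here. The 33 members and all lists were chosen with earlier results of these data known. Probe sets were named through the platform annotation, updated by Entrez ID, and those with several genes (691), no gene (1555) or control function (64) were left out. Each array was scaled to a 2% trimmed mean of 235, a pseudocount of 14.7 was added before log2, and probe sets with a mean signal under 47.0 were left out. limma 3.58.1 (R 4.3.3, lmFit and eBayes) was fitted to all 12 arrays with terms for group and labelling kit (8 residual degrees of freedom), two-sided, with Benjamini-Hochberg adjustment over 12072 probe sets. Fold changes are on the log2 scale of signal plus pseudocount, which understates changes of dim genes. Each gene is represented by the probe set whose mean log2 signal was highest. Data were simulated for activated against quiescent cells over 12072 probe sets, with 200 changed. In them 71% of 2-fold and 98% of 4-fold changes were called, and 9 unchanged probe sets. The simulated noise was normal and independent between probe sets. In the real data 3708 probe sets were called higher with activation, so these rates need not hold there. The text names all members, and of each other pathway list up to 4 called genes with the smallest adjusted p, every called gene that moved against the rest, and all tested Myc network genes. Replicate numbers occur in every group, but 11 of 12 same-numbered pairs had residual correlations under 0.1 (-0.51 to 0.25), so the numbers were not treated as pairs. Alternatives covered the kit, pseudocount, filter, scaling, probe set rule, variance model and each array left out. Figures were drawn with Python 3.11.15 and matplotlib 3.10.9.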

Additional observations from a re-analysis of the deposited data

Results flagged for a closer look

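In 9 of 90 sets of 4 arrays (30 genes in 3 groups) 1 array stood apart from the other 3 by Dixon's criterion, which chance alone meets in about 1 in 20 sets. Non-myogenic replicate 1, the 1 non-myogenic array of the small-sample kit, was lowest for 3 genes. It read 312.2 for Fbl against 644.9 to 697 on the others, 274.1 for Nhp2 against 504 to 529.7, and 130.7 for Ddx18 against 353.4 to 411.8. Non-myogenic replicate 3 was lowest for Rrs1 (147.9 against 247.2 to 272.8) and Nop14 (83.56 against 143.4 to 153.9). Non-myogenic replicate 4 was highest for Gnl3 (587.7 against 467 to 472.1) and replicate 2 for Wdr12 (93.48 against 60.38 to 63.5). Quiescent replicate 1 was lowest for Brix1 (693.6 against 894.6 to 931.4), and activated replicate 4 was highest for Polr1a (447.4 against 355 to 363).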

How the results depend on the processing

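Across 28 settings no member was called lower in any comparison except Wdr75, at -0.45 with activation as the mean of its probe sets, which made 1 member lower. With activation 20 of the 26 called genes kept the call in every setting, and 6 lost it in at least 1 (Npm1, Wdr75, Fbl, Polr1a, Ncl and Heatr1). Of the 27 higher in quiescent than in non-myogenic cells 11 kept it throughout, and of the 30 higher in activated than in non-myogenic cells 29 did (Nop14 did not). The median activation change was 0.94 with the small-sample arrays alone, 1.47 without scaling and 0.89 as the mean of probe sets. Quiescent against non-myogenic cells gave 11 called with the small-sample arrays alone, which hold fewer arrays, and a median of 0.60 with 18 called without scaling. Leaving scaling out moved the median of all genes to 0.18 with activation (3068 higher and 2116 lower, against 2513 and 3020) and to -0.34 for quiescent against non-myogenic cells (783 and 3050, against 2063 and 2096). With 1 array left out the called members were 25 to 27 with activation (median 1.10 to 1.20), 27 to 28 (0.91 to 1.08) in quiescent and 30 (1.99 to 2.17) in activated against non-myogenic cells. A block for the replicate number left the counts at 26, 27 and 30 with medians of 1.16, 0.94 and 2.02, and changed no call. Rrp12 was not tested with the stricter filter. No detection calls were used here, so the limit for dim probe sets is not known.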
